A study of Rattus norvegicus with 18 samples.

Results

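The 8 genes of the Fos and Jun family of transcription factors, Fos, Fosb, Fosl1, Fosl2, Jun, Junb, Jund and Atf3, were followed in the brains of rats kept from paradoxical sleep (rapid eye movement sleep) or allowed to regain it. Their probe sets are all those that the array's platform annotation assigns to one of these symbols, which gave 14 of the 31099 probe sets on the array. Of these, 6 probe sets of 4 genes (Fos, Jun, Junb and Jund) passed a filter on low signals and 8 did not. The rats were male Sprague-Dawley animals, all carrying implanted electrodes for brain and muscle recordings, kept under a fixed light and dark cycle and killed at the same clock time. Recovery rats spent 72 h without paradoxical sleep and were then allowed to sleep for 6 h. Deprived rats were kept from paradoxical sleep for 78 h. Control rats stayed in the home cage. Deprivation used small platforms over water, from which a rat is woken when muscle tone is lost, so time on the platforms and loss of paradoxical sleep cannot be told apart here. Each state had 12 rats in 2 sets of 6, and equal masses of RNA from the right hippocampal formation and from the right neocortex were pooled within each set. The 12 pools were measured on 18 arrays, since set 1 was pooled anew for a technical array in each group. There were thus n = 2 pools in each of 6 groups. The number of pools limits the precision.

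Fos and Jun proteins pair through a leucine zipper and bind DNA as the dimer called activator protein 1 (AP-1). In neurons, calcium entry and growth factor signals start transcription of Fos, Fosb and Junb within minutes and the transcripts are short-lived, which is why Fos RNA is widely used as a mark of recent neuronal activity. Jun needs no Fos partner to bind DNA, Jund is present at rest in most cells, and Atf3 is a related factor induced by injury and stress.

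Signals below are MAS5 intensities, in arbitrary units, of single arrays, and differences are on the log2 scale after a floor of 1. Both arrays of set 1 were averaged before any difference was taken. Technical arrays of a pool correlated at a median of 0.9796. Arrays of the same group but different sets correlated at 0.9654 in the hippocampal formation and 0.9728 in the neocortex, below the 0.9779 found between states within 1 structure and set. By these medians the sets stood further apart than the states in both structures, and more so in the hippocampal formation. The median between states is not split by structure. The main differences of AP-1 members are therefore given for each set below. Markers of hippocampal and neocortical neurons mostly went with the labels of the structures. All 5 of the kept hippocampal neuron markers were called higher in the hippocampal formation (median log2 difference 2.03). Of 8 neocortical markers 5 were called lower there (median -1.28), and 2 were above 0 but not called. Striatal markers, 7 of 7, were called lower too, with a summed signal of 525.8 to 720.7 in hippocampal pools and 1339 to 1731 in neocortical pools. None of the red cell markers was at 0, and the summed signal of the 3 on the array was 985 and 991.4 in recovery, 1999 and 1156 in deprived and 2922 and 1510 in control hippocampal pools (set 1, then set 2), and 816.2 and 1054, 1738 and 1591, and 2206 and 1678 in the neocortical pools of the same states. In a tissue pool, fewer cells of a type and less RNA per cell cannot be told apart.

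The 14 probe sets lay on both sides of the filter. Fos 1375043_at, Jund 1393138_at, Junb 1387788_at and the 3 Jun probe sets were above the filter signal of 19.7 on every array. Fosb 1373759_at lay just under the filter, with a mean signal of 18.4, and the kept probe set nearest above it, Junb 1387788_at, had a mean of 62.4. The other 7 dim probe sets spanned 0.4 to 42.0 over the 18 arrays. They were the second probe set of Fos, 2 further ones of Jund, both of Fosl2 and the only ones of Fosl1 and Atf3.

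**Figure D1:**
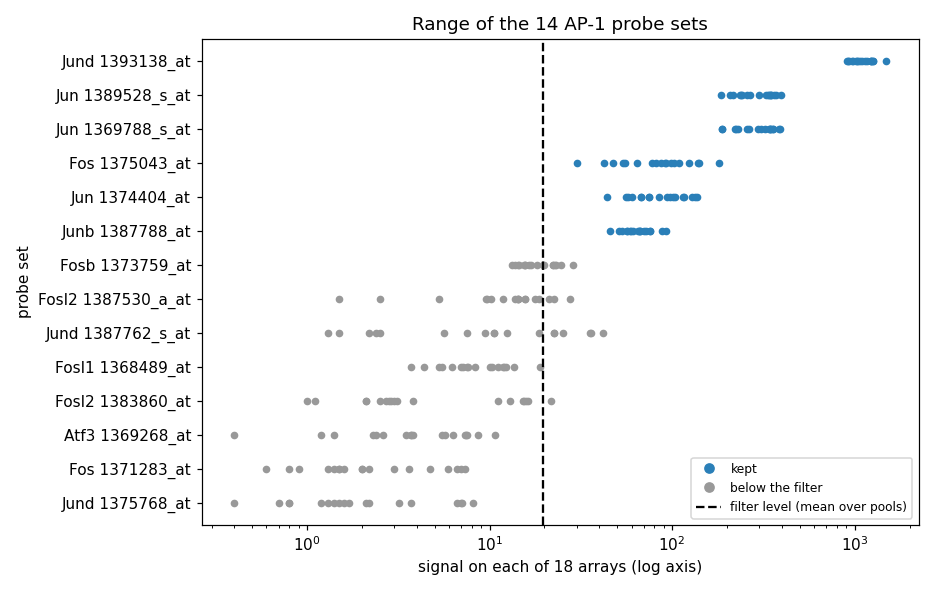
Signal of each of the 14 AP-1 probe sets on each of the 18 arrays (log axis, arbitrary units), ordered by mean signal. The dashed line is the filter signal of 19.7, which applies to the mean over pools; 6 probe sets have a mean to its right, and Fosb 1373759_at sits on it.

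Fos, the inducible partner of the Jun proteins, had its highest signals in the deprived neocortex and its lowest in the control hippocampal formation. Within the hippocampal formation the recovery rats had the highest values, where probe set 1375043_at read 92.6 and 101.9 in set 1 and 91.3 in set 2 after recovery. The deprived pools gave 47.2, 55.4 and 86.5, and the control pools 42.4, 30.1 and 78.0. Both recovery pools lay above the pools of the other states, but in set 2 by little. Recovery minus control was 0.84 (SE 0.423), with 1.44 in set 1 and 0.227 in set 2. Recovery minus deprived was 0.50, with 0.926 in set 1 and 0.0779 in set 2. Deprived minus control was 0.33, with 0.517 and 0.149, and the pools overlapped. None passed limma's test (adjusted p = 1), and the sizes rest largely on set 1.

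In the neocortex Fos was instead highest in the deprived rats. It read 81.6 and 98.4 in set 1 and 138.7 in set 2 of the recovery rats. It read 123.9, 139.9 and 181.7 in deprived rats and 53.6, 64.2 and 109.3 in control rats, in the same order of arrays. Both deprived neocortical pools lay above both control pools, while the recovery pools overlapped with those of both other states. Deprived minus control was 0.95 on the log2 scale (SE 0.423, 1.93-fold), with 1.17 in set 1 and 0.733 in set 2. Recovery minus control was 0.48, with 0.611 and 0.344 in the sets, and recovery minus deprived was -0.47, with -0.555 and -0.39. Each set of rats thus gave the same order, deprived, recovery, control, but the pools of set 2 were also higher than those of set 1. None of these differences passed limma's test (Benjamini-Hochberg adjusted p = 1). The 3 kept red cell markers were each below control in both structures in recovery and deprived rats, with medians of -1.19 (recovery) and -0.548 (deprived) in the hippocampal formation and -1.08 and -0.18 in the neocortex, and their part in the Fos values was not tested. Choroid plexus markers had a summed signal of 1722 and 780.4 in recovery, 5794 and 922 in deprived and 3544 and 1830 in control hippocampal pools (3 of the 4 kept markers below control in recovery, median -0.493), and their part was not tested either.

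**Figure D2:**
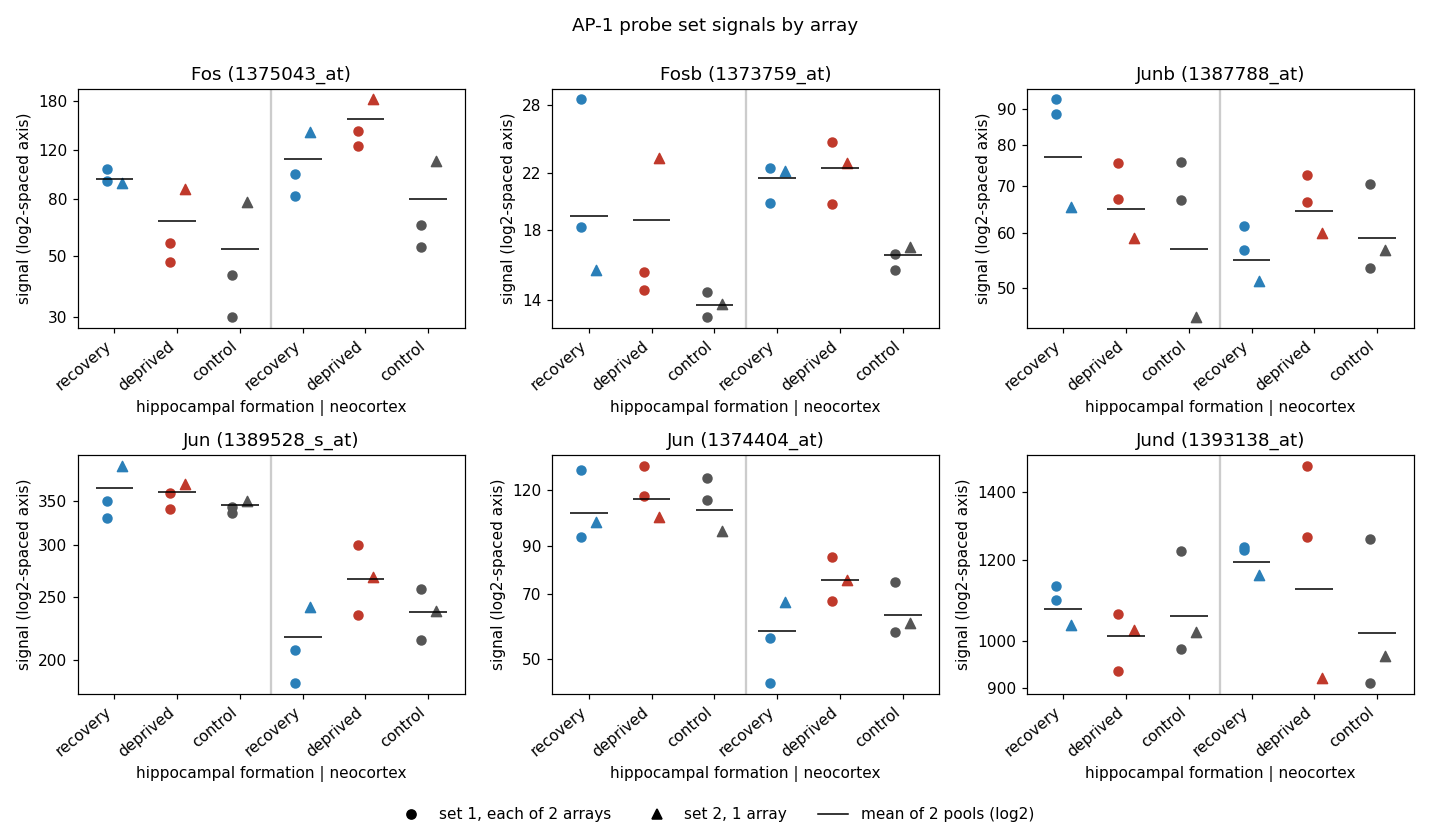
Signals of 6 AP-1 probe sets on each array, on log2-spaced axes, with hippocampal groups left of the line and neocortical groups right of it; circles are the arrays of set 1, triangles the array of set 2 and bars the mean of both pools. Fos peaks in the deprived neocortex and in the recovery hippocampal formation, and the Jun panels show the hippocampal arrays above the neocortical ones.

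Ordered by mean log2 signal, Fos stood at 7.27 ± 0.329 in the deprived neocortex, 6.80 ± 0.446 in the recovery neocortex, 6.56 ± 0.0632 in the recovery hippocampal formation, 6.32 ± 0.635 in the control neocortex, 6.06 ± 0.536 in the deprived hippocampal formation and 5.72 ± 0.797 in the control hippocampal formation (SD, n = 2 pools each). The pools of every pair of neighbours in this order overlapped. The spread between technical arrays of a pool was smaller (SD 0.202 over 6 pairs) than 5 of these 6 SDs. Fos was higher in set 2 than in set 1 in 5 of the 6 groups, with set differences of -0.0894 to 1.13.

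Averaged over states, Fos was lower in the hippocampal formation than in the neocortex. The hippocampal arrays ranged from 30.1 to 101.9 with a median of 78.0, against 53.6 to 181.7 with a median of 109.3 in the neocortex. The difference within animal pools was -0.69 (SE 0.11, 1.61-fold, 6 animal pools, limma with Benjamini-Hochberg adjusted p = 0.00603). By state it was 0.116 and -0.603 in recovery rats, -1.36 and -1.07 in deprived rats and -0.716 and -0.487 in control rats (set 1, then set 2). The structure gap was thus widest in deprived rats, and in the recovery rats of set 1 the sign turned. The change of this gap between states was tested directly. Its difference between recovery and deprived rats was 0.97 (SE 0.269), with 1.48 in set 1 and 0.468 in set 2, and did not pass (adjusted p = 1). For deprived minus control the value was -0.62, with -0.649 and -0.584 in the sets. For recovery minus control it was 0.36, and the sets had opposite signs (0.832 and -0.117). Striatal markers were lower in the hippocampal samples as given above, and their part in the structure difference was not tested.

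Fosb encodes a close relative of Fos whose truncated product is long-lived and accumulates in rodent neurons under repeated stimulation. Its probe set 1373759_at, just below the filter, read 18.2, 28.6 and 15.6 in recovery, 14.5, 15.5 and 23.2 in deprived and 13.2, 14.4 and 13.8 in control hippocampal formation. In the neocortex it read 22.4, 19.8 and 22.2 in recovery, 24.6, 19.7 and 22.8 in deprived and 15.6, 16.5 and 16.9 in control rats. In both structures the recovery and the deprived pools lay above the control pools, and recovery and deprived pools overlapped. Of all kept probe sets, 10% lay above control without overlap in each of these hippocampal comparisons. In the neocortex the shares were 11.9% for recovery and 13.1% for deprivation. In the neocortex both sets gave nearly the same differences, 0.392 and 0.394 for recovery minus control and 0.456 and 0.432 for deprived minus control. In the hippocampal formation the sets disagreed in size, with 0.727 and 0.177 for recovery minus control and 0.121 and 0.749 for deprived minus control. When all probe sets were tested without the filter, each of these 4 comparisons had adjusted p = 1 (SE 0.303). Technical arrays of a pool differed by an SD of 0.222, and log2 sizes are uncertain for a probe set this dim.

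The pool values of Fosb and Fos, after each structure's mean was removed, had a Pearson r of 0.666 over the 12 pools. Pools share rats between structures and a set number between states, so this is a description. Some pairs that include a probe set far below the filter had a higher r. Examples are Atf3 with Jun 1374404_at (0.879) and Jund 1375768_at with Jun 1369788_s_at (0.736). The other members of the Fos branch were dim. Fosl1, which encodes Fra-1, read 3.7 to 19.0, and the probe sets of Fosl2, which encodes Fra-2, read 1.0 to 21.8 and 1.5 to 27.5. The second Fos probe set, 1371283_at, read 0.6 to 7.3 on all arrays and gave no second measurement of Fos. Technical arrays of these 4 probe sets differed by an SD of 0.526 to 1.14 on the log2 scale, so no state difference is given for them.

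**Figure D3:**
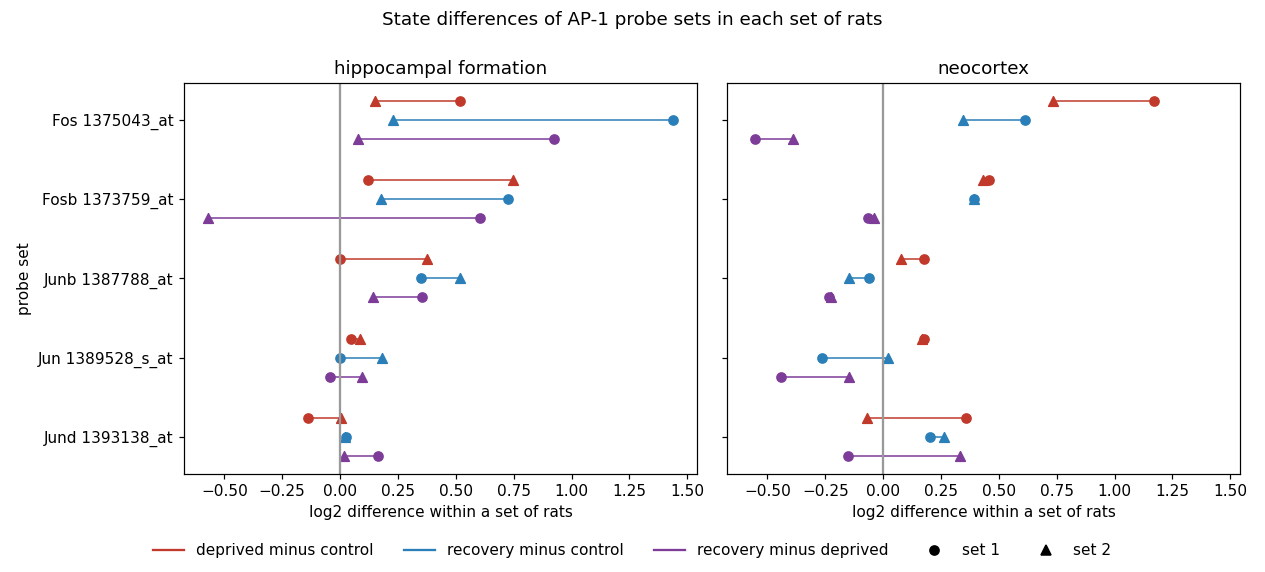
Log2 difference between states within each set of rats for 5 AP-1 probe sets, hippocampal formation left and neocortex right; circles are set 1, triangles set 2, and lines join both sets of a comparison. Neocortical Fos lies at 1.17 and 0.733 for deprived minus control, and hippocampal Fos at 1.44 and 0.227 for recovery minus control.

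Jun, which encodes c-Jun, the substrate of the Jun N-terminal kinases, was called higher in the hippocampal formation by all 3 of its probe sets. Probe set 1389528_s_at read 329.1 to 396.1 on the hippocampal arrays, with a median of 349.4, and 184.5 to 299.8 on the neocortical arrays, with a median of 238.0. No hippocampal pool overlapped with a neocortical pool (13.5% of all probe sets do not overlap, 6.46% with the hippocampal pools higher). The hippocampal formation minus neocortex difference was 0.58 (SE 0.0516, 1.49-fold), with 0.576 in set 1 and 0.581 in set 2, and lay between 0.402 and 0.795 in the 6 animal pools (limma, adjusted p = 0.000506). The other Jun probe sets gave the same direction in 6 of 6 animal pools. For 1369788_s_at the hippocampal arrays read 323.6 to 392.3, with a median of 347.3, against 186.7 to 306.7 with a median of 230.1 in the neocortex. That difference was 0.63 (SE 0.0841, 1.54-fold, adjusted p = 0.00294), with 0.465 and 0.785 in the sets. For 1374404_at the arrays read 94.4 to 136.6, with a median of 114.2, against 44.1 to 84.9 with a median of 67.3. Its difference was 0.76 (SE 0.0987, 1.69-fold, adjusted p = 0.00251), with 0.934 and 0.585 in the sets. Pools of the structures overlapped for neither, so all 3 Jun probe sets agreed on the structure difference. After each structure's mean was removed, 1369788_s_at had a Pearson r of -0.0142 with 1389528_s_at and 0.142 with 1374404_at over the 12 pools. Between 1389528_s_at and 1374404_at r was 0.586. Without the recovery, deprived or control pool of either set in turn, each of the 3 still passed. Among markers of other cells, 2 of 7 for astrocytes and 2 of 6 for oligodendrocytes were called higher in the hippocampal formation, 3 of 6 for endothelium were called lower, and of 6 for meninges and fibroblasts 2 were higher and 4 lower. None of the neuron markers, 0 of 7, was called. Of all probe sets, 9.4% were called higher and 10.5% lower. The ratio of 3' to 5' beta-actin signal, which rises as RNA degrades, was 2.33 and 2.39 in recovery, 2.47 and 2.44 in deprived and 2.42 and 2.52 in control hippocampal pools (set 1, then set 2). It was 3.18 and 2.83, 3.01 and 2.35, and 2.69 and 2.61 in the neocortical pools of the same states. The hippocampal ratio was thus the lower one in each animal pool except the deprived rats of set 2. The same ratio for Gapdh was 1.09 to 1.17 in hippocampal and 1.05 to 1.17 in neocortical pools. The part of these markers and ratios in the structure differences of Jun and Fos was not tested.

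**Figure D4:**
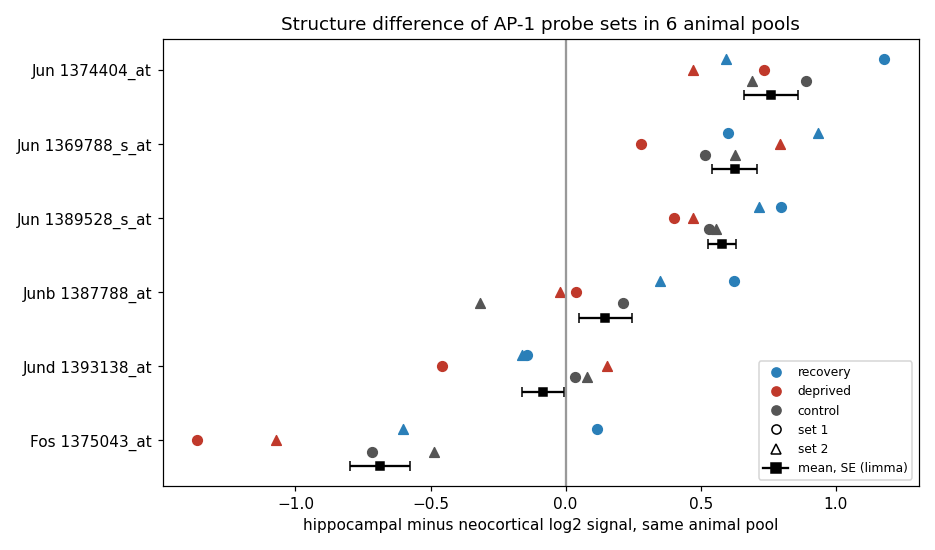
Hippocampal minus neocortical log2 signal within each of the 6 animal pools for the 6 kept AP-1 probe sets; circles are set 1, triangles set 2, colours the states, and black squares the limma mean with its SE. All Jun points lie to the right of 0, from 0.279 to 1.18, and 5 of the 6 Fos points to the left.

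Across sleep states the Jun probe sets differed less than their SE in the hippocampal formation. The 9 state differences there lay between -0.104 and 0.0902, and in the neocortex between -0.387 and 0.265. In the neocortex 1389528_s_at read 184.5, 206.9 and 241.3 in recovery, 299.8, 234.2 and 267.6 in deprived and 256.8, 214.6 and 238.0 in control rats. Both recovery pools lay below both deprived pools, and the deprived pools lay above the control pools. Recovery minus deprived was -0.29 (SE 0.123), with -0.44 in set 1 and -0.149 in set 2. The other probe sets had -0.39 (1374404_at, pools not overlapping) and -0.20 (1369788_s_at, pools overlapping). Deprived minus control was 0.17 for 1389528_s_at and 0.27 for 1374404_at. For 1369788_s_at it was -0.02, and its sets had opposite signs (0.207 and -0.254), so the probe sets differed here. Recovery minus control was -0.12 for 1389528_s_at, -0.12 for 1374404_at and -0.22 for 1369788_s_at. None passed limma's test (adjusted p = 1). The neocortical beta-actin ratios given above also differed between states, and their part in the neocortical values of Jun and Fos was not tested. The hippocampal minus neocortical gap of 1389528_s_at was wider by 0.32 (SE 0.126) in recovery than in deprived rats (adjusted p = 1), with 0.394 and 0.242 in the sets.

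Junb encodes an inducible Jun protein that is transcribed together with Fos in stimulated neurons. Probe set 1387788_at read 92.9, 88.6 and 65.2 in recovery, 67.0, 75.4 and 59.0 in deprived and 75.7, 66.8 and 45.5 in control hippocampal formation. Each set had its highest hippocampal value in recovery rats, but the pools of recovery and control overlapped, with set 2 below set 1 in every state. Recovery minus control was 0.44 (SE 0.237), with 0.351 in set 1 and 0.519 in set 2. Recovery minus deprived was 0.25, with 0.352 and 0.144, and deprived minus control was 0.19, with -0.000708 and 0.375. In the neocortex Junb read 61.3, 56.6 and 51.2 in recovery, 72.4, 66.3 and 59.9 in deprived and 70.4, 53.5 and 56.7 in control rats. There recovery lay below deprived in both sets (-0.23, with -0.234 and -0.226) and the pools did not overlap. The neocortical differences from control were -0.10 for recovery and 0.13 for deprivation. None passed (limma, adjusted p = 1). Junb was lower in set 2 than in set 1 in all 6 groups, with set differences of -0.644 to -0.114, whereas Fos was higher in set 2 in 5 of 6. After each structure's mean was removed, their pool values had r = -0.0827 over the 12 pools, given as a description. Between structures Junb differed by 0.15 (SE 0.0985, adjusted p = 0.317), with 0.291 in set 1 and 0.00313 in set 2. The recovery minus control difference was larger in the hippocampal formation than in the neocortex by 0.54 (SE 0.241), with 0.411 and 0.666 in the sets. Recovery minus deprived was larger there by 0.48, with 0.586 and 0.371, and neither passed (adjusted p = 1).

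Jund encodes the most constantly expressed Jun protein. Probe set 1393138_at read 1098.4, 1133.4 and 1037.8 in recovery, 935.3, 1063.9 and 1025.1 in deprived and 1224.4, 984.0 and 1021.3 in control hippocampal formation. In the neocortex it read 1226.6, 1236.3 and 1162.0 in recovery, 1264.7, 1484.4 and 921.7 in deprived and 911.0, 1258.4 and 968.0 in control rats. Its hippocampal state differences lay between -0.0663 and 0.0897 and its neocortical ones between 0.0901 and 0.233. The neocortical recovery pools lay above the control pools, by 0.23 (SE 0.16), with 0.202 in set 1 and 0.264 in set 2 (limma, adjusted p = 1). Between structures the difference was -0.08 (SE 0.0784, adjusted p = 0.476), and the sets had opposite signs (-0.188 and 0.0225). The other Jund probe sets, 1387762_s_at and 1375768_at, read 1.3 to 42.0 and 0.4 to 8.1. Atf3 read 0.4 to 10.7 on all 18 arrays, with technical arrays of a pool differing by an SD of 0.713, so no state difference is given for it.

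Promoter sequence is shown for Junb and Jund, the members with a kept probe set that are in the RefSeq promoter table used here, as a pair of which one is known as inducible and the other as constantly expressed. Each window runs from 250 bases before to 50 bases after the gene's start in build GRCr8, with matches in capitals. The Junb window is chr19:40080876-40081175 on the plus strand. The Jund window is chr16:18769722-18770021 on the minus strand. Searched on both strands were TGACGTCA (the cyclic AMP response element), its first 5 letters TGACG, which the full element contains, TGANTCA (the AP-1 site), the CArG box bound by serum response factor, and TATAAA.
Junb: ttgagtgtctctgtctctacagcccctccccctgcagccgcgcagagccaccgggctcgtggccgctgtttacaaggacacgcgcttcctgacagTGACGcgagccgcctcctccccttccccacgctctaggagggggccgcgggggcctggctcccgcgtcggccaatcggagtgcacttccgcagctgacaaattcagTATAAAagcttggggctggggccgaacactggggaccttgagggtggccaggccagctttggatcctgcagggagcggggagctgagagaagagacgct
Jund: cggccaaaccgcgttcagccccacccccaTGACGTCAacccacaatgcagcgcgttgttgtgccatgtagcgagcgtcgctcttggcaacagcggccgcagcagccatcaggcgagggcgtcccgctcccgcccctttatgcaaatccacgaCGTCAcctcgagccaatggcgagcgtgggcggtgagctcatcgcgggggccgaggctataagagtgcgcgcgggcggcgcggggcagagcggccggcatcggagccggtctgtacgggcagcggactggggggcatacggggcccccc
The Junb window held TGACG at base -155 and TATAAA at base -49, counted with the gene's first base as 0. The Jund window held TGACGTCA at base -221 and, apart from it, TGACG on the reverse strand at base -98. Neither window held the letters of the AP-1 site or of the CArG box. Among 33465 promoters of the same length, 1.83% held TGACGTCA, 21.2% TGACG, 7.33% TGANTCA, 1.64% a CArG box and 14.2% TATAAA. A match is a stretch of letters and not a measured site.

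Counted together, 0 of the 6 kept AP-1 probe sets were called in any of the 6 state comparisons, against 0% of the 18625 probe sets tested in each (limma, adjusted p under 0.05). Without adjustment, 2 of 36 member comparisons had a p under 0.05, neocortical Fos for deprived minus control (0.0491) and Jun 1389528_s_at for recovery minus deprived (0.038). Over all probe sets such p-values made up 1.1% (deprived minus control), 1.51% (recovery minus control) and 1.62% (recovery minus deprived) in the hippocampal formation and 1.11%, 1.12% and 0.907% in the neocortex. This fit leaves the difference between sets in its spread, so 0 calls do not show that states were alike. In the hippocampal formation the pools of Fos did not overlap for recovery minus control (1 of 6, higher, 10% of all probe sets and 19.9% either way). Those of Fos and of Jund did not overlap for recovery minus deprived (2 of 6, higher, 11.8% and 23.2%), nor did those of Jun 1389528_s_at for deprived minus control (1 of 6, higher, 10% and 19.3%). Pools did not overlap for 3 of the 6 in neocortical deprived minus control, all higher (13.1% of all probe sets were higher in this way and 24.5% either way), which were Fos and Jun probe sets 1389528_s_at and 1374404_at. For neocortical recovery minus deprived 3 of 6 did not overlap, all lower (12.5% lower, 23.4% either way), the same Jun probe sets and Junb. For neocortical recovery minus control it was 1, Jund, higher (11.9%, and 24% either way). With 6 probe sets of 4 genes, 3 of them of Jun, these counts are few. In the structure comparison 4 of the 6 were called, against 19.9% of all probe sets. All 3 Jun probe sets were higher (9.4% of all were called higher) and Fos lower (10.5% were called lower). In the 3 tests of a state difference between structures, 0 of 6 were called against 0% of all. Without adjustment, Fos (0.00819) and Jun 1389528_s_at (0.0395) had a limma p under 0.05 for recovery minus deprived, 2 of 6 against 1.6% of all probe sets. For deprived minus control and recovery minus control it was 0 of 6, against 1.14% and 1.3%.

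The kinases and factors that drive Fos and Jun transcription were examined as a list of 25 genes, of which 19 were on the array and all 19 passed the filter. In the 6 state comparisons 0 of 19 passed limma's test, and the list medians lay between -0.0423 and 0.0135, against -0.00607 to 0.00872 for all probe sets. Between structures 1 was higher and 6 were lower in the hippocampal formation (list median -0.182, all probe sets -0.0147), against 9.4% and 10.5% of all probe sets. Mef2c, a factor that binds the promoters of activity-regulated genes and is also a neocortical marker, was lower (log2 difference -1.53, SE 0.134, adjusted p = 0.000472), and its second kept probe set was at -1.47. The kinase genes Rps6ka3 (-0.56), Rps6ka2 (-0.55), Mapk9 (-0.42) and Mapk8 (-0.39) were lower, the last pair encoding Jun N-terminal kinases, and so was Mef2d (-0.37). The second kept probe sets of Rps6ka3 and Mapk9 were at -0.578 and -0.37, both called, those of Mapk8 at -0.30 (called) and -0.145 (not called), and that of Mef2d at 0.0234, not called. Map2k1, a kinase of the extracellular signal-regulated pathway, was higher (0.26). Creb1, the factor that binds the cyclic AMP response element, had the smallest p of the list for hippocampal deprived minus control, at 0.43 (SE 0.201, adjusted p = 1), with 0.396 and 0.459 in the sets. Its second kept probe set was at 0.339.

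Other leucine-zipper proteins that can pair with AP-1 members made a list of 20 genes, with 18 on the array and 15 kept. Again 0 of 15 passed in the state comparisons, with medians between -0.0214 and 0.0829. Between structures 3 were higher and 1 lower (median 0.0354, all probe sets -0.0147). With 9.4% of all probe sets called higher and 10.5% lower, 4 of 15 is near the share of all probe sets, and the values below describe single genes. Cebpb was higher by 1.16 (SE 0.102, adjusted p = 0.000475), Cebpd by 0.72 and Ddit3 by 0.27, the last a partner of Cebp proteins in stress responses. The second kept probe set of Cebpd was higher too (1.36). Maf was lower (-0.65), with its second kept probe set at -0.367, not called.

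Genes known as AP-1 targets made a list of 25, with 24 on the array and 15 kept. In the state comparisons 0 of 15 passed, with medians between -0.0245 and 0.0613. Bdnf, a neurotrophin gene, was the target with the lowest p for recovery against control in both structures. Recovery minus control was 0.67 (SE 0.226) in the hippocampal formation, with 0.618 and 0.722 in the sets, and 0.54 in the neocortex, with 0.526 and 0.547 (limma, adjusted p = 1). Recovery minus deprived was 0.72 in the hippocampal formation, with 0.674 and 0.76 in the sets, and the second kept Bdnf probe set gave 0.50 against control and 0.17 against deprived rats there. In the neocortex recovery minus deprived was 0.31 for Bdnf, with 0.491 and 0.134 in the sets, and -0.247 for its second probe set, where Fos was at -0.47. Both genes were thus highest in recovery in the hippocampal formation, while in the neocortex the brighter Bdnf probe set and Fos had opposite signs, and none of these differences passed. Between structures 4 of the 15 targets were higher and 5 lower (median 0.0143, all probe sets -0.0147), against 9.4% and 10.5% of all probe sets. Bdnf was higher by 1.28 (SE 0.0814, adjusted p = 0.000149) with its second probe set at 0.292, not called, Pdyn, the prodynorphin gene, by 0.48 (second probe set 0.75, called), Cd44 by 0.51 (second probe set 0.194, not called) and Gria2, an AMPA receptor subunit, by 0.17 (second probe set 0.471, called). Penk, the proenkephalin gene, was lower (-1.85, SE 0.109, adjusted p = 0.000121), as were Timp1 (-0.84), Npy (-0.64), Vegfa (-0.49, second probe set -0.101, not called) and Vim (-0.48). Striatal markers were lower in the hippocampal samples as well, and Penk is abundant in striatal neurons. Whether tissue next to the neocortex contributed was not tested.

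Genes whose pool values were most like those of Fos, out of 10290 genes ranked by Pearson r over 12 pools after each structure's mean was removed, were Ciao1 (0.92), Sema3e (0.904), LOC102548047 (0.902), Pwwp2a (0.901) and Gskip (0.881). Their own neocortical deprived minus control values were 0.102 to 0.264, smaller than that of Fos. For Junb they were Hyal2 (0.949), the astrocyte glutamate transporter gene Slc1a2 (0.921), the phosphatase gene Dusp5 (0.915), Ehd2 (0.9) and Scnm1 (0.897). For hippocampal recovery minus control, Dusp5 and Ehd2 were at 0.689 and 0.653 and the others at 0.206 to 0.299. Pools of different states share a set number, and the part of the set difference in these orders was not tested.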

How the data were processed

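Per the labels' protocols, biotin-labelled cRNA from pooled total RNA (6 rats per pool) was hybridised to Affymetrix rat arrays. The deposited values are probe set intensities on a linear scale, made by the authors with MAS5 per the submitters' processing notes. Version, scaling target and detection calls are not given in the sources used here. The trimmed mean signal was 100 on every array, which shows a common scale, and median signals were 32.1 to 37.1.

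Intensities were raised to a floor of 1, taken as log2 and not normalized further. The 57 control probe sets and the lowest 40% of the other 31042 by mean log2 value were left out, which kept 18625. Technical arrays were averaged. limma 3.58.1 (R 4.3.3; lmFit, eBayes with an intensity trend) was fitted to 6 groups of 2 pools (6 residual and 3.78 prior degrees of freedom). The structure comparison and its change between states used the difference, hippocampal minus neocortical, within each of 6 animal pools (3 residual and 4.13 prior), since the series design draws both structures from the same sets of rats. Adjustment was by Benjamini-Hochberg over all kept probe sets. The fits were tested on simulated data, with 200 of the 18625 probe sets changed. Log2 changes of 1 were called for 45.5% of them in neocortical deprived minus control and for 73% between structures. Changes of 2 were called for 89.5% and 97%. The simulated pools held no difference between sets and no shared rats, so these shares do not carry over directly to the data. Pools of 1 structure are separate sets of rats, but each set gave a pool of both structures. The state fit treated its 12 pools as independent, although they come from 6 animal pools. P-values of the state fit measure the spread between pools of a group. Those of the structure tests measure the spread of the within-pool difference between animal pools.

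Named genes outside the family were list members that passed or had the smallest p, and the 5 genes most like Fos and Junb. Likeness to Atf3, which the rule also covers, was not computed because its probe set was below the filter. The brightest probe set stands for a gene. The members, lists and alternatives were chosen with earlier results of these data known. Gene names are from the platform annotation (20832 probe sets with 1 symbol, 436 with several, 9831 with none), and the array files name no genome build. Promoters are from RefSeq (GRCr8), found for 5 of the 8 members. Alternatives were the replicate block, floor, offset, filter, quantile normalization, trend, technical arrays, samples fitted and leaving out pools. Figures used matplotlib 3.10.9.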

Additional observations from a re-analysis of the deposited data

How the results depend on the processing

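The counts of called AP-1 probe sets, 0 of 6 in each state comparison and each test between structures and 4 of 6 between structures, were the same under every alternative run, including each pool left out in turn and the hippocampal pools of set 2 left out together. These counts cover the 6 kept probe sets only. In the fit without the filter, the dim Fosl2 1383860_at passed between structures, higher in the hippocampal formation. Its log2 difference was 1.92 (SE 0.393, limma, adjusted p = 0.0277), with 1.11 in set 1 and 2.74 in set 2. That run called 3145 of 31042 probe sets. The other Fosl2 probe set was at 0.89 and was not called. The replicate block (set number as a fixed term) changed no member's call. Same-numbered pools deviated together, with correlations of 0.539 to 0.682 within a structure and 0.182 to 0.387 between structures, but the labels do not say that sets of different states shared a day or litter. With the block, 7 of 36 member state comparisons had an unadjusted p under 0.05, against 2 without it, where such p-values made up 4.56% to 7.32% of all probe sets with the block and 0.907% to 1.62% without it. The smallest adjusted p of a member between states was 0.425 (limma, Fos, hippocampal recovery minus control), with the block. All probe sets called with the block were 8006 between structures, against 3700 without it. In the neocortex they were 2 (deprived minus control), 0 (recovery minus control) and 1 (recovery minus deprived). The test of recovery minus deprived between structures called 2 with the block, no member among them. There 3 of 6 members had an unadjusted p under 0.05 with the block, against 5.81% of all probe sets. Over all alternatives the structure difference of Fos had adjusted p between 0.000129 and 0.0387, and Jun at most 0.00538, 0.0147 and 0.02. Leaving out 1 pool, Fos ranged from 0.501 to 1.4 for neocortical deprived minus control and from 0.272 to 1.4 for hippocampal recovery minus control (1.44 without the hippocampal pools of set 2). Under the alternatives 31 differences were followed, and not every difference given above was among them. Jun 1374404_at for neocortical recovery minus control (-0.401 in set 1, 0.158 in set 2) was not. Nor was Jun 1369788_s_at for neocortical deprived minus control, whose sets also had opposite signs. Of those followed, these differences, none called, changed sign when 1 pool was left out. Neocortical recovery minus control of Jun 1389528_s_at ran from -0.275 to 0.0298 (positive without recovery set 1). Neocortical recovery minus deprived of Jun 1369788_s_at ran from -0.545 to 0.145 (positive without deprived set 1). Hippocampal deprived minus control ran from -0.23 to 0.897 for Fos (negative without control set 1 or deprived set 2). It ran from -0.135 to 0.509 for Junb (negative without control set 2), and was -0.000708 without the hippocampal pools of set 2. The structure difference of Jund ran from -0.185 to 0.0191 (positive without the deprived rats of set 1). The difference between structures ran from -0.205 to 0.325 for Junb, deprived minus control (negative without control set 2), and from -0.00216 to 0.718 for Fos, recovery minus control (negative without recovery set 1). The cause was not tested. A pool left alone in its group was taken to vary like the others. Signals near background limit Fosb, leave Fosl1 and Atf3 unmeasured, and make the log2 sizes of Fosl2 uncertain.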
